A study of Mus musculus with 8 samples.

Results

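The genes described here are the amino acid transporter genes of mouse lung endothelial cells (ECs). They were taken as the protein-coding genes whose symbols belong to the SLC1, SLC3, SLC6, SLC7, SLC36, SLC38 and SLC43 families, apart from Slc7a11 and Slc6a2. Symbols had to end in a digit, which also left out Slc6a20a and Slc6a20b. This gave 59 of the 54532 genes in the deposited table, of which 33 had enough counts to be tested and 26 did not. WT pups lived from birth to postnatal day 14 either at 21% O2 (room air, here called normoxia) or at 80% O2 (hyperoxia), and their lung ECs were profiled by bulk RNA-seq in 4 libraries a group. Long hyperoxia after birth serves as a mouse model of bronchopulmonary dysplasia, a lung disease of preterm infants with poor growth of vessels and alveoli. Per the study's methods, ECs were collected from lung suspensions with CD31 beads after CD45-positive leukocytes had been removed. The labels do not say whether libraries of a group came from separate animals, so p-values measure the spread between these libraries, which may be technical.

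Amino acids cross membranes mainly on carriers, and each carrier family moves its own range of substrates. System ASC and system A carriers bring in small neutral amino acids and glutamine. The heterodimers of the SLC3 and SLC7 families exchange large neutral or cationic amino acids, with the SLC3 protein as the heavy chain that takes the SLC7 light chain to the cell surface. Cationic amino acid transporters supply arginine, which ECs use for nitric oxide and polyamines. Some relatives carry other substrates, such as taurine, creatine and monoamines in the SLC6 family, and lysosomal members take part in amino acid sensing by mTORC1, the kinase complex that links nutrients to growth.

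Libraries held 16098086 to 18300730 counts, of which 40286 to 48444 in normoxia and 35694 to 40297 in hyperoxia fell on the transporter genes. The mitochondrial share of counts was 0.864 to 1.05% in normoxia and 1.21 to 1.43% in hyperoxia, without overlap. Pan-endothelial markers such as Cdh5 and Pecam1 were abundant in all libraries, with a summed level of 18605 to 19188.5 CPM (counts per 1000000 counts of the TMM-normalized library) in normoxia and 17942 to 19579 CPM in hyperoxia. Of these 12 markers, 4 rose and 3 fell, with log2 fold changes from -0.79 (Tek) to 0.42 (Emcn). RNA of other cells was present as well. The 12 listed markers of alveolar type 2 (AT2) epithelial cells all rose, from a sum of 302 to 450.3 CPM in normoxia to 942 to 2833 CPM in hyperoxia. All 10 tested markers of alveolar type 1 cells rose too, with sums of 150.1 to 181 and 331 to 731 CPM, and Cav3 of that list was at 0 in every library. Of the fibroblast markers, 5 of 9 rose (212 to 429 against 294 to 753 CPM), as did 7 of 9 mural cell markers (38.4 to 87.4 against 78.5 to 197 CPM). Leukocyte markers were at 167 to 347 and 186 to 341 CPM, and 1 of 14 rose and 1 fell. Platelet and erythroid markers were at 128 to 220.02 and 103 to 152 CPM, with 1 of 8 higher and 3 lower, the globin genes Hbb-bs and Hba-a1 and the heme synthesis gene Alas2. Among ECs, 6 of 6 markers of aerocyte capillary ECs (aCap) rose, from 1849 to 2214 to 3462 to 3899.9 CPM. Markers of general capillary ECs (gCap) summed to 8644 to 9993 CPM in normoxia and 7169 to 8327 CPM in hyperoxia, with 4 of 6 falling and 1 rising. Apart from the fits with marker scores given below, the part of these cell types in the results was not tested. In bulk RNA, fewer cells of a type and less RNA per cell cannot be told apart. Hyperoxia 3 held the fewest AT2 transcripts of its group and lay nearest to normoxia on the first principal component of all genes (15.9, against 31.2 to 32.9 for the other hyperoxia libraries and -32.9 to -23.3 for normoxia).

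Levels were compared between genes as FPKM, the deposited fragments per kilobase of gene length and per 1000000 fragments. The summed FPKM of the transporter genes was 396 to 426 in normoxia and 341 to 376 in hyperoxia, so that it was lower in every hyperoxia library (409.9 ± 15.6 against 361 ± 15.2, SD, n = 4), and shares of this sum are shares of a smaller total in hyperoxia. A few carriers made up most of it. Slc43a3, which carries purine nucleobases despite its family, stood first with a mean of 92.7 FPKM over the 8 libraries. Slc38a2, the system A carrier SNAT2, followed with 80.6 FPKM, and Slc3a2, the CD98 heavy chain, with 58.1 FPKM. These 3 genes held 59.6 to 61.7% of the summed transporter FPKM in normoxia and 57.9 to 60.4% in hyperoxia. Slc6a6, the taurine transporter, came next with a mean of 44.1 FPKM and Slc38a10 with 29.1 FPKM. The order of Slc3a2 and Slc6a6 depended on the group. In normoxia they stood at 56.4 ± 3.86 and 57.3 ± 4.10 FPKM (SD, n = 4) with overlapping libraries, whereas in hyperoxia they were at 59.7 ± 1.43 and 31.0 ± 5.05 FPKM without overlap. From the sixth place on, the levels were much lower and close together: Slc36a4 had 10.4 FPKM, Slc1a5 9.44, Slc6a8 9.0, Slc7a7 8.95, Slc7a1 6.0, Slc7a6 5.37, Slc38a7 5.25, Slc36a1 5.25, Slc43a2 2.56 and Slc38a9 2.15 FPKM.

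**Figure D1:**
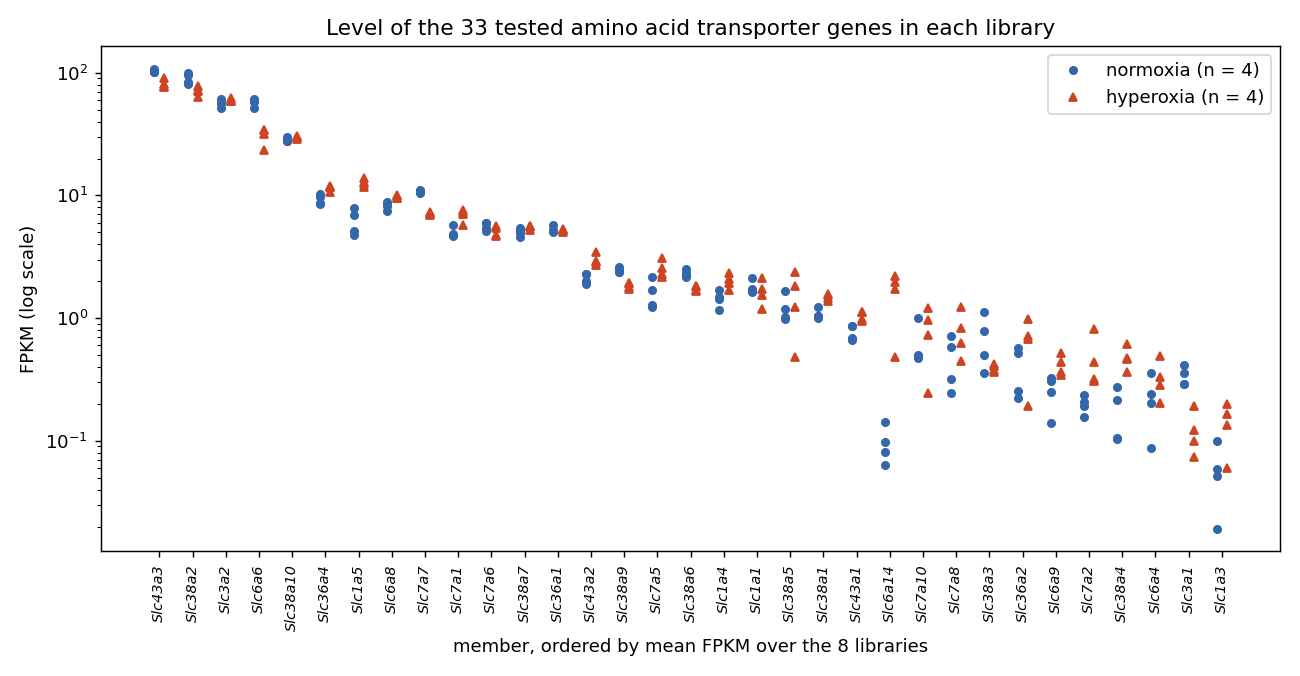
Deposited FPKM (log axis) of the 33 tested transporter genes, ordered by their mean over the 8 libraries, with 1 point per library (circles for 4 normoxia, triangles for 4 hyperoxia). Slc43a3, Slc38a2, Slc3a2, Slc6a6 and Slc38a10 stand above the others, and the circles and triangles of Slc6a6, Slc1a5, Slc7a7 and Slc6a14 are well apart.

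Hyperoxia was compared with normoxia by edgeR's quasi-likelihood test with Benjamini-Hochberg adjustment over 15564 genes. At an adjusted p under 0.05, 12 transporter genes were higher in hyperoxia, 7 were lower and 14 did not pass, so that 57.6% of the tested transporter genes were called. The background was 35.6% of all genes tested, with 18.5% higher and 17.1% lower. The median log2 fold change (hyperoxia relative to normoxia) of the 33 genes was 0.31, against -0.0040 over all genes tested. The filter on low counts can let a gene in through 1 group alone, so neither this share nor the median describes all 59 genes. With a log2 fold change of at least 1 in either direction as well, 4 transporter genes were higher and 1 was lower, 15.2% of those tested, beside 6.98% of all genes (5.62% higher, 1.36% lower). That count of 5 was 8 without normoxia 1 and 8 without hyperoxia 3. The groups did not overlap for 19 of the 33 (57.6%, against 35.4% of all genes). Of these 19, Slc6a9 missed the test, and of the 19 genes called, Slc1a4 had overlapping groups.

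**Figure D2:**
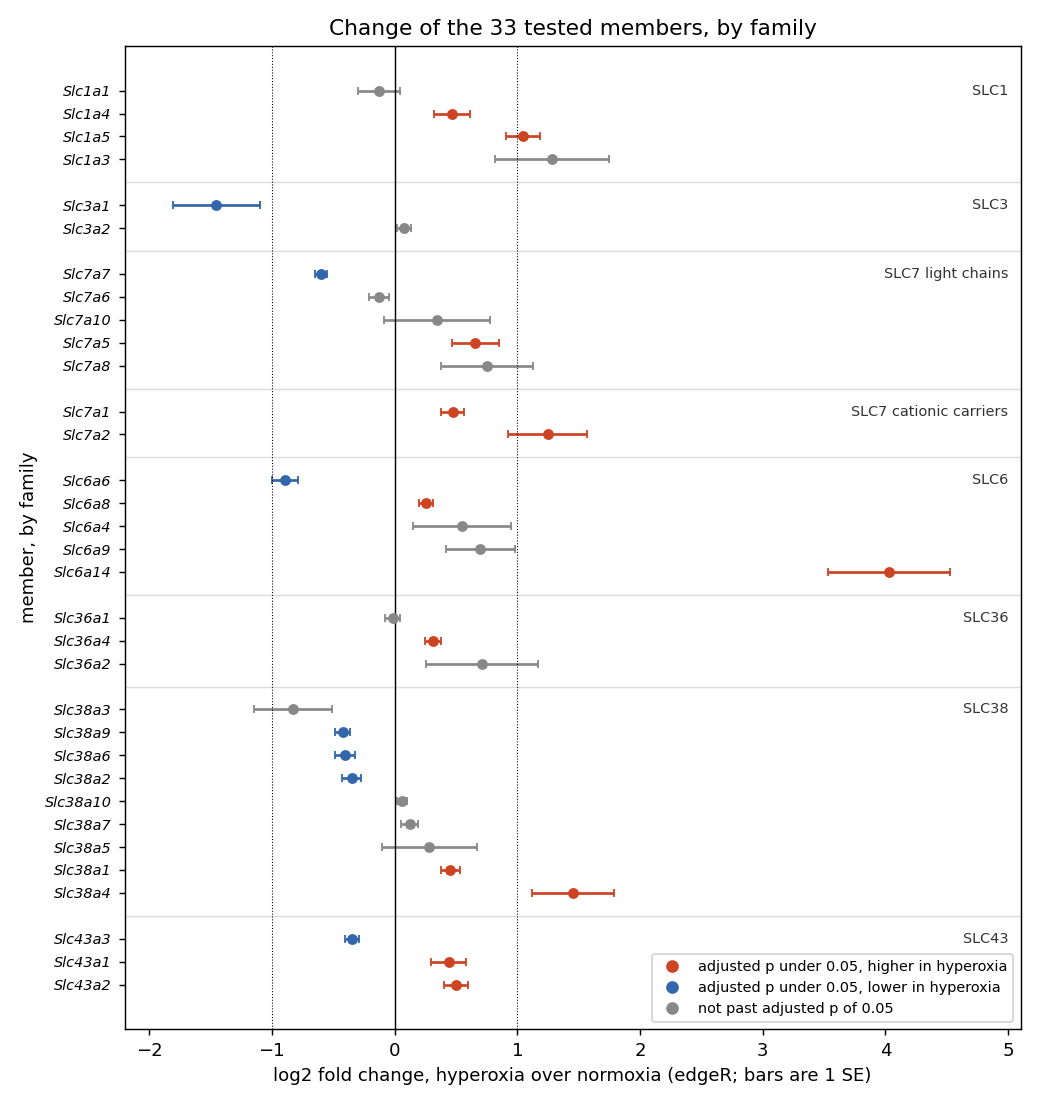
Log2 fold change (hyperoxia relative to normoxia) of the 33 tested transporter genes, grouped by family, with bars of 1 standard error and dotted lines at -1 and 1. Red points mark the 12 genes that rose and blue points the 7 that fell at an adjusted p under 0.05, grey points mark the 14 others, and Slc6a14 lies farthest to the right at 4.03.

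Because epithelial, fibroblast and mural markers moved with the groups, each result was fitted again with their scores as covariates. The sums of the AT2 markers did not overlap between groups, so group and score largely cannot be told apart, and the standard errors rose to a median of 2.83 times. With the epithelial score, edgeR called 0 of the 33 transporter genes, while 10 were at an unadjusted p under 0.05. Of the 19 genes called without the score, 6 were among these 10, and 15 kept their sign. DESeq2 without the score called 21. In the edgeR fit with the epithelial score, the log2 fold change of Slc7a7 was -0.57 (edgeR adjusted p = 0.158) and that of Slc7a1 was 0.91 (adjusted p = 0.114). Those of Slc43a3 and Slc38a2 were 0.024 and 0.027 in the same fit (adjusted p = 0.961 and 0.975). With the fibroblast and mural score, all 19 kept their sign, 6 were called higher and 3 lower, and the standard errors were 1.65 times those without it. Slc1a5 (0.90, edgeR adjusted p = 0.0271), Slc6a6 (-0.75, adjusted p = 0.0224) and Slc7a7 (-0.60, adjusted p = 0.00225) were among these 9.

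In the SLC1 family, 4 of 7 genes were tested and 2 rose. Slc1a5 encodes ASCT2, which exchanges glutamine and other neutral amino acids. It was at 29.0, 20.2, 32.9 and 21.5 CPM in normoxia libraries 1 to 4 and at 49.4, 53.8, 51.5 and 58.7 CPM in hyperoxia libraries 1 to 4. Every hyperoxia library was thus above every normoxia library. The means of 25.9 ± 6.06 and 53.4 ± 4.0 CPM (SD, n = 4) gave a log2 fold change of 1.04 (SE 0.138, edgeR adjusted p = 0.000217). Slc1a4, the related alanine, serine and cysteine carrier ASCT1, rose by a smaller step, from 5.72 to 7.89 CPM (log2 fold change 0.47, SE 0.146, edgeR adjusted p = 0.0289), and hyperoxia 3 (6.64 CPM) lay below normoxia 1 (6.67 CPM). Its adjusted p was 0.0688, 0.0643, 0.0630 and 0.0893 without normoxia 3, normoxia 4, hyperoxia 1 and hyperoxia 2 in turn. The glutamate carriers were low: Slc1a1 was at 11.1 and 10.2 CPM (edgeR adjusted p = 0.597), and Slc1a3, a carrier typical of glia, was at 0.496 and 1.20 CPM (log2 fold change 1.28, edgeR adjusted p = 0.0539). Slc1a3 passed in 5 of 18 alternatives, with adjusted p of 0.0429 without the filter, 0.0497 with DESeq2, 0.0474 with the replicate block, 0.0290 without normoxia 1 and 0.0175 without hyperoxia 3. Of the exon bases of Slc1a1, 31.9% overlap 4430402I18Rik on the other strand. As a share of the summed transporter FPKM, the SLC1 family took 1.98 to 2.73% in normoxia and 4.07 to 4.98% in hyperoxia.

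The SLC3 heavy chains differed in level and direction. Slc3a2 stood at 200, 219, 184 and 201 CPM in normoxia and at 210.1, 218.5, 207 and 212 CPM in hyperoxia, so the groups overlapped (log2 fold change 0.08, SE 0.0543, edgeR adjusted p = 0.298). Slc3a1, the heavy chain of the renal cystine carrier, was near the limit of detection and fell. It had 11, 17, 12 and 15 counts in normoxia and 3, 5, 4 and 8 in hyperoxia, without overlap (0.785 ± 0.142 and 0.282 ± 0.12 CPM, log2 fold change -1.45, SE 0.354, edgeR adjusted p = 0.00858). Of its exon bases, 26.5% overlap Prepl on the other strand, and the use of strand in counting is not given in the sources used here. Prepl itself was at 17.6 and 15.1 CPM, with a log2 fold change of -0.23 (edgeR adjusted p = 0.0242).

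Of 9 SLC7 light chains, 5 were tested, 1 rose and 1 fell. Slc7a7, the y+L light chain that exchanges cationic for neutral amino acids, had the smallest standard error of the transporters that fell. Its levels were 37.0, 36.7, 35.4 and 35.0 CPM in normoxia and 23.8, 23.0, 24.3 and 24.0 CPM in hyperoxia. The groups were far apart relative to their spread (log2 fold change -0.60, SE 0.0517, edgeR adjusted p = 1.08e-05). Slc7a7 shares 7.0% of its exon bases with Oxa1l on the other strand, which was at 56.0 and 56.4 CPM. Its relative Slc7a6 was at 25.8 ± 1.87 and 23.6 ± 2.15 CPM with overlapping groups (log2 fold change -0.13, SE 0.0821, edgeR adjusted p = 0.256). The FPKM ratio of Slc7a7 to Slc7a6 was accordingly 1.77 to 2.05 in normoxia and 1.28 to 1.51 in hyperoxia. Slc7a5, the leucine and large neutral amino acid carrier LAT1, rose. It was at 4.78, 6.43, 8.0 and 4.58 CPM in normoxia and at 9.59, 8.10, 11.4 and 8.54 CPM in hyperoxia, with the highest normoxia library just below the lowest hyperoxia library (log2 fold change 0.66, SE 0.189, edgeR adjusted p = 0.0193). Its adjusted p was 0.0510, 0.0555 and 0.0532 without normoxia 1, normoxia 4 and hyperoxia 3 in turn. The heavy chain stayed far above this partner, at an FPKM ratio of Slc3a2 to Slc7a5 of 24.1 to 46.0 in normoxia and 19.1 to 28.3 in hyperoxia. Slc7a8, the light chain LAT2, was at 2.34 and 3.95 CPM with overlapping groups (edgeR adjusted p = 0.145).

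Both tested cationic carriers of the SLC7 family rose. Slc7a1, the arginine transporter CAT1, was at 55.1, 54.9, 56.1 and 66.8 CPM in normoxia and at 67.1, 82.3, 88.6 and 85.7 CPM in hyperoxia. The groups only just failed to touch, since normoxia 4 and hyperoxia 1 lay next to each other (log2 fold change 0.47, SE 0.0929, edgeR adjusted p = 0.0025). Slc7a2, the second arginine carrier CAT2, was at 1.90, 1.76, 2.18 and 1.44 CPM in normoxia and at 7.54, 2.83, 2.92 and 4.05 CPM in hyperoxia. All hyperoxia libraries were higher, but hyperoxia 1 stood well above the rest. The log2 fold change was 1.25 (SE 0.322, edgeR adjusted p = 0.0115), and 0.84 (adjusted p = 0.0175) without hyperoxia 1. With the epithelial score it was -0.21 (edgeR adjusted p = 0.949) and with the fibroblast and mural score 0.97 (adjusted p = 0.318). The call was also lost with limma on log2(FPKM + 0.1) (0.87, adjusted p = 0.0678) and on log2(FPKM + 1) (0.28, adjusted p = 0.0953). Slc7a4, with 72 counts in all, was not tested and was at 0.231 ± 0.0867 and 0.790 ± 0.291 CPM without overlap. It shares 13.3% of its exon bases with P2rx6 on the other strand.

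Only 5 of the 18 SLC6 genes taken were tested, with 2 higher and 1 lower. Slc6a6, which takes up taurine, had the largest fall of the abundant transporters. Its levels were 439, 525, 490.2 and 502 CPM in normoxia and 201, 290, 292 and 269.9 CPM in hyperoxia. The lowest normoxia library was above the highest hyperoxia library by more than the range of either group (489 ± 36.5 against 263 ± 42.3 CPM, log2 fold change -0.89, SE 0.108, edgeR adjusted p = 0.000115). Its share of the summed transporter FPKM went from 13.0 to 14.5% in normoxia to 6.93 to 9.28% in hyperoxia. The creatine transporter Slc6a8 rose slightly, from 42.6, 46.4, 39.0 and 44.0 CPM to 49.8, 53.1, 50.3 and 52.1 CPM (log2 fold change 0.26, SE 0.0591, edgeR adjusted p = 0.00656).

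Slc6a14, a carrier of neutral and cationic amino acids known from epithelia, had the largest fold change of the tested transporters. It had 8, 5, 6 and 4 counts in normoxia and 119, 134, 29 and 107 in hyperoxia, which is 0.333 ± 0.115 and 5.49 ± 2.64 CPM (log2 fold change 4.03, SE 0.498, edgeR adjusted p = 0.000135). Hyperoxia 3 was the lowest of its group for Slc6a14 (1.66 CPM) and also for the AT2 marker sum. Among the 12 transporter genes called higher, hyperoxia 3 was the lowest of its group for 3 and hyperoxia 1 for 6. Among the 7 called lower, hyperoxia 3 was the highest of its group for 4, hyperoxia 4 for 2 and hyperoxia 1 for 1. The AT2 marker Sftpc, the surfactant protein C gene, had 106 ± 31.1 CPM in normoxia, against 1121 ± 476 CPM in hyperoxia. With the mean log2 level of the alveolar epithelial markers as a covariate, the log2 fold change of Slc6a14 was 0.13 (SE 0.491, edgeR adjusted p = 0.943). Slc6a9, the glycine transporter GLYT1, was at 1.33 and 2.15 CPM without overlap but missed the threshold (log2 fold change 0.70, edgeR adjusted p = 0.0759), and 27.8% of its exon bases overlap Ccdc24 on the other strand. The serotonin transporter Slc6a4, known from lung ECs, was at 1.01 and 1.49 CPM with overlapping groups (edgeR adjusted p = 0.313).

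**Figure D3:**
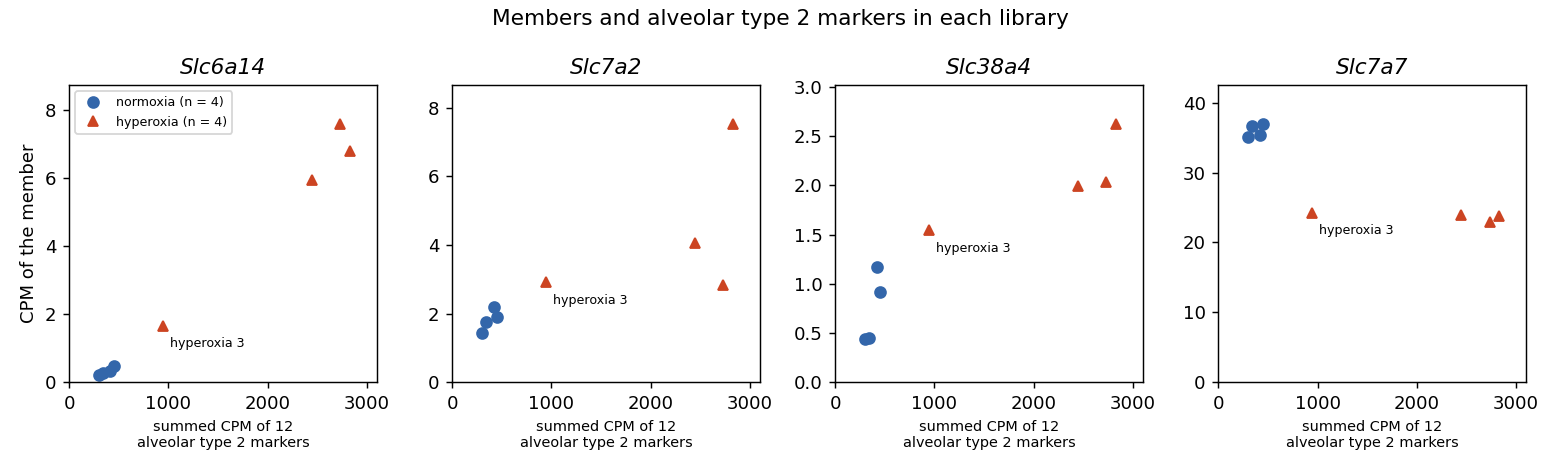
CPM of Slc6a14, Slc7a2, Slc38a4 and Slc7a7 in each library against the summed CPM of the 12 AT2 markers, on linear axes from 0 (circles for 4 normoxia, triangles for 4 hyperoxia). Hyperoxia 3 lies apart from the other hyperoxia libraries on the marker axis (942 CPM against 2447 to 2833). It is the lowest of its group for Slc6a14 and Slc38a4, whereas for Slc7a2 it (2.92 CPM) lies just above hyperoxia 2 (2.83 CPM). Its Slc7a7 level of 24.3 CPM lies close to the other 3.

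In the SLC36 family of small amino acid carriers, 3 of 4 genes were tested and 1 rose. Slc36a4 was at 56.7, 63.9, 56.0 and 67.4 CPM in normoxia and at 70.7, 76.9, 77.5 and 78.1 CPM in hyperoxia, without overlap (log2 fold change 0.31, SE 0.0672, edgeR adjusted p = 0.00428). Slc36a1, its lysosomal relative PAT1, was at 29.9 ± 1.79 and 29.6 ± 0.701 CPM, with overlapping groups (log2 fold change -0.02, SE 0.0590, edgeR adjusted p = 0.862). Slc36a2, which carries glycine and proline in kidney, was at 1.29 and 2.10 CPM (edgeR adjusted p = 0.255).

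The SLC38 family, the system A and system N carriers and their intracellular relatives, had 9 of 11 genes tested, with 2 higher and 3 lower. Slc38a2 was at 749.5, 893, 720.1 and 852 CPM in normoxia and at 567, 642, 685 and 631 CPM in hyperoxia. All hyperoxia libraries were lower (804 ± 82.2 against 631 ± 48.8 CPM, log2 fold change -0.35, SE 0.0790, edgeR adjusted p = 0.00578). Slc38a1, the system A carrier SNAT1, went the other way, from 18, 17.6, 21.4 and 18 CPM to 24.0, 26.4, 27.0 and 25.4 CPM (log2 fold change 0.45, SE 0.0794, edgeR adjusted p = 0.00127). The FPKM ratio of Slc38a2 to Slc38a1 was 65.7 to 99.1 in normoxia and 46.1 to 49.5 in hyperoxia, so Slc38a2 remained the more abundant in every library. Slc38a4, the system A carrier SNAT4, was rare, with 15, 8, 21 and 8 counts in normoxia and 46, 36, 27 and 36 in hyperoxia. Its groups did not overlap (0.748 ± 0.361 and 2.05 ± 0.44 CPM, log2 fold change 1.45, SE 0.335, edgeR adjusted p = 0.00641). With the epithelial score its log2 fold change was 0.19 (edgeR adjusted p = 0.956), and its call was also lost with the fibroblast and mural score. Hyperoxia 3, with the fewest AT2 transcripts, was the lowest of its group for Slc38a4.

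Slc38a9, the lysosomal arginine sensor upstream of mTORC1, fell. It was at 39.7, 44.3, 39.9 and 41.6 CPM in normoxia and at 32.3, 29.0, 29.8 and 32.4 CPM in hyperoxia, with a wide gap between the groups (log2 fold change -0.42, SE 0.0607, edgeR adjusted p = 0.00036). Slc38a6 fell as well, from 18.2, 19.8, 17.6 and 17.1 CPM to 14.4, 13.0, 13.3 and 14.3 CPM (log2 fold change -0.40, SE 0.0802, edgeR adjusted p = 0.0027). The lysosomal glutamine exporter Slc38a7 was at 21.0 and 22.9 CPM (edgeR adjusted p = 0.19), and Slc38a10 was at 184 ± 5.78 and 192 ± 3.85 CPM (log2 fold change 0.06, SE 0.0410, edgeR adjusted p = 0.251), both with overlapping groups. The liver and brain glutamine carrier Slc38a3 was at 3.69 ± 1.83 and 2.08 ± 0.14 CPM, and the spread in normoxia, 1.90 to 6.03 CPM, covered hyperoxia (log2 fold change -0.83, edgeR adjusted p = 0.0642). It passed without the filter (adjusted p = 0.0423), with DESeq2 (0.0445) and without normoxia 1 (0.0136).

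All 3 genes of the SLC43 family were called. Slc43a3 was at 458, 461, 464 and 483 CPM in normoxia and at 353, 360, 409 and 345 CPM in hyperoxia, without overlap (466 ± 11.4 against 367 ± 28.8 CPM, log2 fold change -0.35, SE 0.0569, edgeR adjusted p = 0.000877). Slc43a2, the large neutral amino acid carrier LAT4, rose from 19.0, 23.3, 23.2 and 20.2 CPM to 27.6, 29.7, 28.9 and 35.1 CPM (log2 fold change 0.50, SE 0.0951, edgeR adjusted p = 0.00211). Of its exon bases, 9.18% overlap the antisense gene Gm45606, which was at 0.344 and 0.510 CPM. Slc43a1, the related carrier LAT3, was at 3.92, 3.81, 4.98 and 4.97 CPM in normoxia and at 6.51, 5.66, 6.41 and 5.49 CPM in hyperoxia (log2 fold change 0.44, SE 0.142, edgeR adjusted p = 0.0325). The groups of both were separate, but Slc43a1 lost its call under 11 of 21 alternative fits, more than any other transporter gene called. Its adjusted p was 0.0791, 0.0805, 0.0854, 0.0536 and 0.0755 without normoxia 1, normoxia 2, hyperoxia 1, hyperoxia 2 and hyperoxia 3 in turn.

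Members that lie within 200 kb of each other could differ in direction. Whether other genes lie between them was not examined. On the mouse build mm10 (GRCm38), Slc38a1 (chr15:96571418-96642913) lies 44.5 kb from Slc38a2 (chr15:96687392-96699730), and the first rose while the second fell. Likewise, Slc43a1 rose and Slc43a3 (chr2:84936579-84958509), at a distance of 73.0 kb, fell. These were the neighbours within 200 kb of which both were called, among 9 such pairs of transporter genes.

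**Figure D4:**
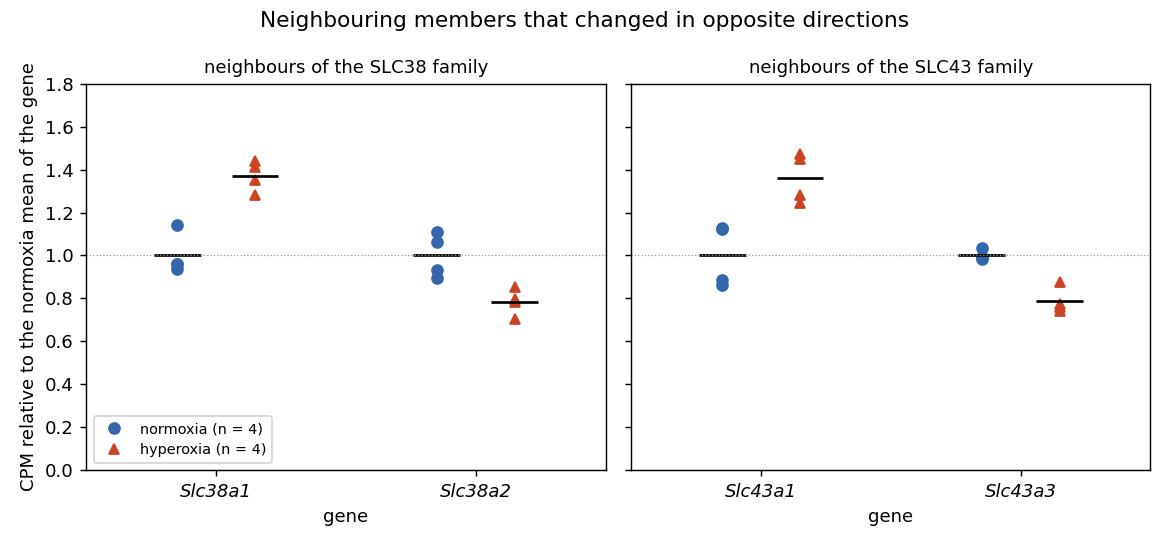
CPM of neighbouring transporter genes in each library, divided by the normoxia mean of the gene (dotted line at 1), with circles for 4 normoxia and triangles for 4 hyperoxia libraries and a bar at each group mean. All hyperoxia points of Slc38a1 and Slc43a1 lie above 1 and above the normoxia points, and all those of Slc38a2 and Slc43a3 lie below 1 and below the normoxia points.

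Promoters, as 250 bases before to 50 after each annotated start in RefSeq (GRCm38.p6), were read for 42 of the 59 genes (63 promoters), to show which hold the letters of stress response elements. The element TGATGNAA is bound by ATF4 with C/EBP proteins when amino acids are scarce. It was found on either strand in 4 of the 63 promoters, beside 3.97% of all 32851 promoters. By gene this was 3 of 42, Slc1a4, Slc6a21 and Slc7a7, beside 4.51% of all 27025 genes. Promoters of the same gene can overlap, so the same site can be counted repeatedly, as for Slc7a7. The antioxidant response element TGACNNNGC, bound by NRF2, was found in 11 of the 63 promoters, beside 12.4% of all promoters. By gene this was 9 of 42, beside 14.0% of all genes. A match is a description of letters, and binding was not measured. The stretches below are shown for 3 of the called genes, 1 higher (Slc7a1) and 2 lower (Slc38a2 and Slc7a7), on the strand of the gene, which is the minus strand for each, with the matched letters in capitals.
Slc7a1, chr5:148399905-148399964, antioxidant element on the other strand: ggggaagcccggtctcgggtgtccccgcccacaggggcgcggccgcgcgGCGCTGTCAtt
Slc38a2, chr15:96699731-96699790, antioxidant element: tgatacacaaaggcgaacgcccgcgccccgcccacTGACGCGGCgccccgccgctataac
Slc7a7, chr14:54417893-54417952, ATF4 element: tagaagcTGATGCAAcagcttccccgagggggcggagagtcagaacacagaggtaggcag
Slc7a7, chr14:54418052-54418111, ATF4 element: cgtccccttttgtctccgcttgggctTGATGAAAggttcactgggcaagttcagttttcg
The same element was thus present beside a gene that rose and a gene that fell. Of the genes called, Slc43a3, Slc6a6, Slc1a5, Slc6a8, Slc7a5, Slc38a1 and Slc7a2 had no entry.

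The 26 genes that were not tested held at most 72 counts over the 8 libraries. No count was found for Slc6a5, the glycine carrier of neurons, nor for Slc6a11, Slc6a18 and Slc7a12. The kidney and gut carriers Slc6a19, Slc7a9 and Slc7a13 had 4, 2 and 2 counts, the dopamine transporter Slc6a3 had 3, and the glutamate carrier Slc1a2 of astrocytes had 13. Apart from Slc7a4 and Slc6a15 (25 counts in all, higher in hyperoxia), whose groups were separate, differences in these genes were not detectable at this depth.

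The genes around the transporters were read from 7 lists of 117 genes, of which 99 were tested. Of these, 24 were higher and 10 lower (34.3%, beside 35.6% of all genes). With upper quartile factors the split was 21 higher and 14 lower, and with the library total alone 22 and 15. Arginine, polyamine and proline enzymes had the most calls, 8 higher and 4 lower of 18. Ass1, which makes the precursor of arginine, rose from 18.5 ± 2.18 to 46.3 ± 3.98 CPM (log2 fold change 1.32, edgeR adjusted p = 2.71e-06). Odc1, the first enzyme of polyamine synthesis, rose from 103 ± 9.71 to 221 ± 17.3 CPM (log2 fold change 1.10, edgeR adjusted p = 2.61e-06). Ddah1, which degrades the methylarginines that inhibit nitric oxide synthase, rose from 131 ± 10.8 to 270.4 ± 6.31 CPM (log2 fold change 1.04, edgeR adjusted p = 8.31e-07). The groups of these 3 genes were separate. Further enzymes of polyamine synthesis fell, Amd1 from 67.7 to 34.9 CPM (log2 fold change -0.95, edgeR adjusted p = 6.35e-06) and Sms from 23.0 to 17.5 CPM (log2 fold change -0.39, edgeR adjusted p = 0.00164), while Srm rose (0.45, adjusted p = 0.0117). Of the enzymes of glutamine, glutamate and asparagine, 4 of 11 rose and 1 fell. Glul, the glutamine synthetase gene, fell from 409 ± 23 to 267 ± 4.99 CPM (log2 fold change -0.61, edgeR adjusted p = 6.64e-06). Asns, which makes asparagine from glutamine, rose from 11.5 ± 2.63 to 19.9 ± 1.09 CPM (log2 fold change 0.79, edgeR adjusted p = 0.00161), and the aminotransferase gene Got1 from 12.6 ± 1.47 to 19.7 ± 2.92 CPM.

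Serine, glycine and cysteine enzymes had 3 higher of 8 tested, among them the folate enzyme gene Mthfd1 (19.4 and 33.2 CPM, log2 fold change 0.78, edgeR adjusted p = 4.2e-05). For amino acid sensing by mTORC1, 5 of 31 genes rose and 4 fell. The sestrins are stress-induced inhibitors of mTORC1. Sesn2, which senses leucine, rose from 19.1 ± 2.77 to 53.3 ± 2.12 CPM (log2 fold change 1.48, edgeR adjusted p = 1.27e-06), and Sesn1 fell from 34.2 ± 2.85 to 22.0 ± 1.52 CPM (log2 fold change -0.64, edgeR adjusted p = 0.000114), while Sesn3 did not pass (log2 fold change 0.19, edgeR adjusted p = 0.0719, overlapping groups). Flcn, which acts on the Rag GTPases, was at 40.6 and 50.6 CPM (log2 fold change 0.32, edgeR adjusted p = 0.00373). Monoamine handling had 3 higher and 1 lower of 7. The monoamine oxidase gene Maoa fell from 211 ± 18.6 to 151 ± 9.4 CPM (log2 fold change -0.48, edgeR adjusted p = 0.000356). The serotonin receptor gene Htr2a rose from 10.2 ± 2.25 to 14.7 ± 3.11 CPM, with overlapping groups (log2 fold change 0.52, edgeR adjusted p = 0.0452). Other amino acid carriers had 1 of 15 called, the mitochondrial ornithine carrier gene Slc25a15 (11.7 and 14.0 CPM, log2 fold change 0.26, edgeR adjusted p = 0.0441). For the 9 tested enzymes of branched-chain amino acid breakdown the median was -0.01 on the log2 scale.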

How the data were processed

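Lung ECs of WT pups were profiled in 4 normoxia and 4 hyperoxia libraries, grouped by their titles. Per the labels, RNA was taken with an RNeasy kit, whereas the study's methods name TRIzol. The submitters' processing notes name HISAT2 2.0.5, featureCounts 1.5.0-p3 and mm10; the use of strand and of reads with several matches is not given in the sources used here. The authors deposited whole-number counts per gene and FPKM. The deposited FPKM equalled the count over gene length and library total, times a constant of 0.974 to 1.01 per library (relative deviation at most 4.0e-08 above 20 counts). Of the 59 members, 57 had the same coordinates in GENCODE M21.

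Counts were tested with edgeR 4.0.16 in R 4.3.3 (TMM, filterByExpr, quasi-likelihood test, group as the only term), with Benjamini-Hochberg adjustment over 15564 genes. Standard errors follow from the F statistic. Scripts were tested on simulated data. Alternatives were other normalizations and filters, DESeq2 1.42.0, limma-voom and limma 3.58.1 on log2 FPKM with pseudocounts of 0.1 and 1, protein-coding genes only, the replicate number as a block, marker scores as covariates and leaving out each library.

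Members and lists were chosen with earlier results of these data known. A member was named at an adjusted p under 0.05 with a log2 fold change of at least 1 in size or a mean of at least 10 CPM, or among the 15 highest in FPKM; from each list the 3 largest changes past the test with at least 10 CPM were named, and some genes are not reported here. Other genes named, among them Slc7a5, Slc1a4, Slc43a1, Slc6a9, Slc6a4, Slc1a1, Slc1a3, Slc7a8, Slc38a3, Slc36a2, Slc7a4, Slc6a15, Sesn3, Amd1, Sms and Srm, were chosen after their values were seen. Library pairs of the same group differed by more than sampling noise (chi-square per degree of freedom 5.11 to 18.5).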

Additional observations from a re-analysis of the deposited data

Results flagged for a closer look

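In 5 of 66 groups of 4 libraries, 1 library stood apart from the other 3 by Dixon's gap criterion, where chance gives about 1 in 20. Slc7a1 was highest in normoxia 4 (66.8 CPM, others 54.9 to 56.1), Slc38a1 in normoxia 3 (21.4 CPM, others 17.6 to 18) and Slc7a10 in normoxia 1 (2.14 CPM, others 1.01 to 1.08). Slc36a4 was lowest in hyperoxia 1 (70.7 CPM, others 76.9 to 78.1) and Slc38a7 in hyperoxia 2 (21.5 CPM, others 23.2 to 23.4). For Slc7a1, Slc38a1 and Slc36a4 it was the library of its group nearest to the other group, and the groups still did not overlap. The source of these deviations was not tested.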

How the results depend on the processing

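Over the single-gene values, 618 kept their direction and side of the threshold, 44 lost the call, 9 gained one and 18 changed sign. Other normalizations, limma-voom and protein-coding genes alone called the same 19 members. With the epithelial score as covariate the calls were 0 higher and 0 lower, 0 with the fold threshold, and 3 higher and 0 lower of the listed genes. With the fibroblast and mural score they were 6, 3 and 2, and 10 higher and 5 lower of the listed genes. The cause was not tested. The epithelial score turned the sign of Slc43a3 (0.024), Slc38a2 (0.027), Slc7a6 (0.083), Slc1a4 (-0.17), Slc38a5 (-3.34), Slc7a10 (-3.68), Slc7a8 (-1.30), Slc36a2 (-3.09), Slc6a9 (-0.20), Slc7a2 (-0.21), Slc6a4 (-0.97) and Slc1a3 (-2.06). The fibroblast and mural score turned Slc38a5 (-1.27), Slc7a10 (-1.24), Slc36a2 (-1.07) and Slc1a3 (-0.22), leaving out normoxia 2 turned Slc36a1 (range over single omissions -0.038 to 0.025), and leaving out hyperoxia 2 turned Slc38a5 (-0.039 to 0.57). With log2(FPKM + 0.1) 3 members passed the fold threshold and with log2(FPKM + 1) 1. Leaving out 1 library gave 10 to 13 higher, 7 to 8 lower and 4 to 8 past the fold threshold, with 8 without normoxia 1 and 8 without hyperoxia 3. In the same single omissions the listed genes ranged from 20 to 27 higher and 7 to 13 lower. Against 24 higher and 10 lower with TMM, upper quartile factors called 21 and 14 of the listed genes, library totals 22 and 15, and protein-coding genes alone 23 and 14. Same-numbered libraries had r of 0.102, 0.0438, -0.149 and -0.200 for numbers 1 to 4, and differently numbered ones spanned -0.272 to 0.314. No pairing by number was thus seen, but these values cannot decide whether libraries were paired. With the replicate block 19 members were called, 18 of them shared: Slc43a1 lost the call and Slc1a3 gained it. Genes under about 1 CPM rest on few counts, and small changes in them were not detectable.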
